A study of Mus musculus with 10 samples.

Results

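The collagen chain genes encode the polypeptides that fold, 3 at a time, into collagen triple helices. They were taken as all probe sets whose single platform symbol has the form of Col, a number, a and a number, which gave 58 probe sets of 36 genes out of 12393 named genes on the array. Each gene was represented by its probe set of highest mean signal across the 10 arrays. By type, 9 of the 36 genes encode fibrillar chains, 9 chains of the basement membrane and 18 chains of other types. The RNA came from the jejunum, the stretch of small intestine between duodenum and ileum, of male mice at postnatal day 30, and was measured on Affymetrix mouse 430A GeneChips. Of the 10 arrays, 5 were labelled as Klf9-/- mutants (Klf9KO, called knockout here) and 5 as wild type (Klf9WT). For knockout replicate 1 a further label names both genotypes, and the group was taken from its title. The design text gives 1 animal per array, while the protocol for labelling mentions pools of RNA. The strain, and the part of Klf9 that the mutation removes, are not given in the sources used here.

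Fibrillar collagens (types I, II, III, V, XI and their relatives) assemble into the banded fibrils that give connective tissue its tensile strength, and in the gut they are made mainly by fibroblasts and smooth muscle cells. Type IV collagen forms the sheet-like network of the basement membrane on which the epithelium of crypt and villus rests, and types VII, XV and XVIII lie in or next to that membrane. Other types form beaded filaments (type VI), decorate fibril surfaces or span the plasma membrane. Klf9 (Kruppel-like factor 9, also known as basic transcription element binding protein) is a zinc finger transcription factor that binds GC-rich promoter elements. The comparison asks whether the RNA of these chains differs between jejunum labelled as Klf9 mutant and as wild type.

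Promoters are shown for 5 of the genes on which the results turn: the neighbours Col4a1 and Col4a2, whose start sites lie 21 bases apart on opposite strands, Col1a2 and Col3a1, fibrillar chains that are both assembled into the same kind of fibril, and Col5a3, the fibrillar chain of lowest p between the labels. Each window holds 250 bases before and 50 after the start in RefSeq on GRCm38.p6, written 5′ to 3′ on the strand of the gene. Capitals mark the GC box GGGCGG, the CCAAT box and the TATA box TATAAA, each on either strand. The windows are chr8:11312777-11313076 on the minus strand for Col4a1, chr8:11312555-11312854 on the plus strand for Col4a2, chr6:4505368-4505667 on the plus strand for Col1a2, chr1:45311288-45311587 on the plus strand for Col3a1 and chr9:20815018-20815317 on the minus strand for Col5a3.
Col4a1: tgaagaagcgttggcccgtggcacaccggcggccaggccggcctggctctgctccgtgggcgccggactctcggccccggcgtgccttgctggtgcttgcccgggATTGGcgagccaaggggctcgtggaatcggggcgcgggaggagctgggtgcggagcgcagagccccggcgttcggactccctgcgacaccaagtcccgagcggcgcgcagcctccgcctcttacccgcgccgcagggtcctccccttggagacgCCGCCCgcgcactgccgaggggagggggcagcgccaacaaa
Col4a2: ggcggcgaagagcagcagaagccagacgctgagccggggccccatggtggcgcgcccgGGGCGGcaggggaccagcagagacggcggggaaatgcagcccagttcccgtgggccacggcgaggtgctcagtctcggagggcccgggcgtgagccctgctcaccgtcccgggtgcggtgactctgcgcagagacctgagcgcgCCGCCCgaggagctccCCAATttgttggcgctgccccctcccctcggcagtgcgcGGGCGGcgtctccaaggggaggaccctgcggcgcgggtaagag
Col1a2: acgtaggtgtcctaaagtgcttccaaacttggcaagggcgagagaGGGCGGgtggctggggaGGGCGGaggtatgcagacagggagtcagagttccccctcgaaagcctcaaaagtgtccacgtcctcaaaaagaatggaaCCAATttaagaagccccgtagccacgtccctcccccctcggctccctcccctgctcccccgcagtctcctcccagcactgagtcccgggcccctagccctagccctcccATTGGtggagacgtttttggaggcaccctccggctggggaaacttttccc
Col3a1: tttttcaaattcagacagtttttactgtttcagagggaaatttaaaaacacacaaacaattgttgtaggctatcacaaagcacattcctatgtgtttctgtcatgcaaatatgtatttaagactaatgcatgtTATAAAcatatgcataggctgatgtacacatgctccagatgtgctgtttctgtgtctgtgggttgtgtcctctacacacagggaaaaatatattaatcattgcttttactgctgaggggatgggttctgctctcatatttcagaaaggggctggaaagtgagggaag
Col5a3: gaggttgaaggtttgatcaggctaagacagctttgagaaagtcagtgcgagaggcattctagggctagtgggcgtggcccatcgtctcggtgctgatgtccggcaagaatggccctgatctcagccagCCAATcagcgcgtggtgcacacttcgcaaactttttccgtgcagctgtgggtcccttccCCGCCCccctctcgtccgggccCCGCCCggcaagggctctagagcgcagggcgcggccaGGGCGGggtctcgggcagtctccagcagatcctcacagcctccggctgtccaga
The Col4a1 and Col4a2 windows share 78 bases, read from opposite strands. The GC box of the Col4a1 window lies in these bases and is also 1 of the 3 counted for Col4a2. GC boxes numbered 1 in the Col4a1 window, 3 in that of Col4a2, 2 in that of Col1a2, 0 in that of Col3a1 and 3 in that of Col5a3, counting both strands. Of the 36 genes 27 had a promoter in the table, with 30 windows, and 17 of these windows (56.7%) held a GC box, against 35.7% of all 32851 promoter windows. Windows with CACCC on either strand, another sequence bound by Kruppel-like factors, made up 73.3% of the collagen windows and 57.5% of all windows. A match is a description of these letters and not a binding site.

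The arrays were checked through Klf9 and through markers of the tissue. The brightest Klf9 probe set had a scaled signal of 944 on knockout replicate 1 and of 340 to 526 on the other knockout arrays, and of 551 on wild type replicate 1 and 964 to 1320 on the other wild type arrays. On both arrays labelled replicate 1 Klf9 thus went against the label, so groups are named by label throughout. For the collagen genes, the counts higher, lower and passed and the differences of lowest p are also given without both arrays. The median signal per array lay between 171 and 194. All 10 epithelial markers on the array had a mean signal above the filter used below, with summed signals of 95905 to 120166 on knockout and 99311 to 138621 on wild type arrays.

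No collagen chain gene passed the threshold between the labels. Of the 36 genes, 20 had a mean signal above the 40th percentile of all probe sets (123) and entered the main test, and 0 of these 20 had an adjusted p under 0.05 in limma. Over all 13579 probe sets tested, 0% passed. At an unadjusted p under 0.05 there was 1 member of 20, Col5a3, or 5%, against 7.89% of all probe sets tested. It was higher on knockout arrays, as were 3.65% of all probe sets at that p, while 4.24% were lower. For 0 of the 20 genes were the groups free of overlap, against 1.55% of all probe sets. The median log2 difference, knockout minus wild type, was 0.03 over the 20 genes (13 higher, 7 lower) and -0.0053 over all tested probe sets (6605 higher, 6974 lower). Without both arrays labelled replicate 1 the same 20 genes had a median of -0.02, with 9 higher and 11 lower. Of these genes 0 passed, where 9 of all probe sets did, Klf9 among them. With the fluidics module as a block, in which 1 knockout array informs a value, 4 were higher and 16 lower (median -0.23, against -0.027 over all probe sets). Then 3 of the 20 (Col1a2, Col4a1 and Col6a1, all lower) had an unadjusted p under 0.05, against 3.47% of all probe sets. In RNA of whole tissue, fewer cells of a type and less RNA per cell cannot be told apart.

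**Figure D1:**
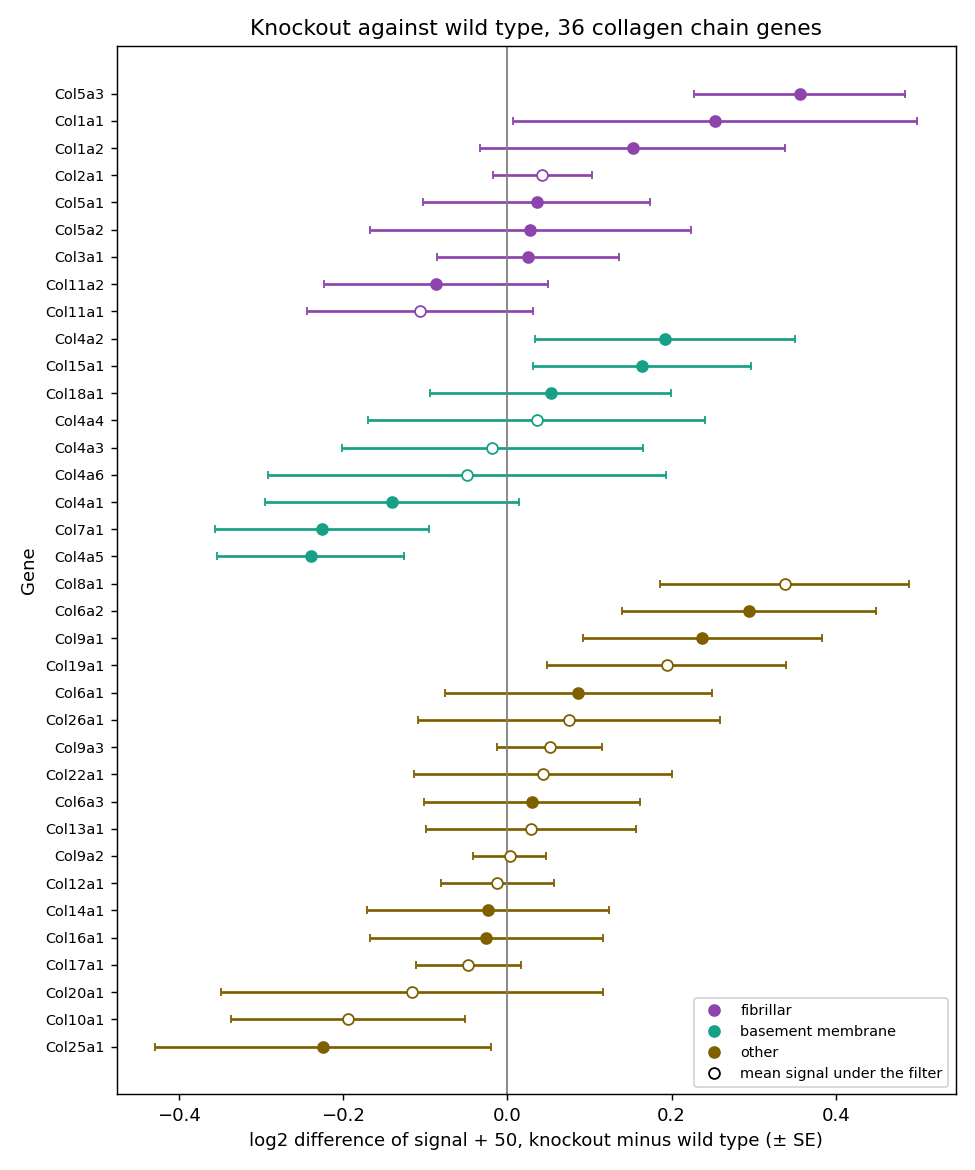
Log2 difference of signal + 50 between 5 knockout and 5 wild type arrays for each of the 36 collagen chain genes; points are estimates, bars are limma's SE, and open points are genes under the filter, from the fit with no filter. The estimates lie between -0.24 (Col4a5) and 0.36 (Col5a3).

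Among the fibrillar chains 7 of 9 genes passed the filter, with a median log2 difference of 0.04 and 6 higher and 1 lower. Without both arrays labelled replicate 1 it was -0.04, with 3 higher and 4 lower. Col1a1, the major chain of type I collagen, had scaled signals of 1556, 799, 1948, 1627 and 918 on knockout replicates 1 to 5. Its signals on wild type replicates 1 to 5 were 1255, 1530, 718, 1204 and 876. Knockout replicates 3, 4 and 1 were above all wild type arrays and replicates 2 and 5 among the low ones, so that the groups overlapped. The log2 difference was 0.25 ± 0.25 (SE; 95% interval -0.28 to 0.78; limma adjusted p = 0.834). Col1a2, the partner chain in the type I trimer, had 2346, 1447, 2533, 1871 and 1315 on knockout replicates 1 to 5. On wild type replicates 1 to 5 it had 1643, 2240, 1388, 1733 and 1387. Knockout replicates 3 and 1 were highest and knockout replicate 5 lowest, and the log2 difference was 0.15 ± 0.19 (SE; adjusted p = 0.874). Col3a1 forms the type III homotrimer of distensible tissues, and its signals were 5930, 4570, 6271, 5788 and 5418 on knockout and 4856, 6495, 5570, 5260 and 5280 on wild type replicates 1 to 5. The groups overlapped, with an SD of 650 on knockout and 616 on wild type arrays and a log2 difference of 0.03 ± 0.11 (SE; adjusted p = 0.976). A dimmer Col3a1 probe set differed by 0.25 ± 0.13 (SE). Over all types, 9 genes had a second probe set past the filter, and for 6 of these its difference had the same sign as that of the first. Among the 9, the second probe sets of Col6a2 and Col18a1 may also read related sequences.

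Col5a3, a minor chain of type V collagen, which regulates fibril diameter, had the lowest p of the members. Its signals were 194, 146, 187, 234 and 165 on knockout replicates 1 to 5 and 138, 156, 138, 131 and 103 on wild type replicates 1 to 5. All knockout arrays but replicate 2 lay above all wild type arrays. The log2 difference was 0.36 ± 0.13 (SE; 95% interval 0.08 to 0.63), 1.28 times on the scale of signal + 50, with an adjusted p of 0.524 in limma. The exact permutation test of this gene alone gave p = 0.0159, two-sided, where 5 against 5 allows no p below 0.00794. The difference was 0.15, 0.49 and 0.50 within wash runs 1, 2 and 3, and 0.35 ± 0.15 (SE) without both arrays labelled replicate 1. Within fluidics module 4, the only module with arrays of both labels, it was smaller, 0.16. The dimmer Col5a3 probe set, under the filter, differed by -0.08 ± 0.08 (SE), with the opposite sign. The other type V chains, Col5a1 and Col5a2, differed by 0.04 ± 0.14 and 0.03 ± 0.20 (SE), and turned to -0.06 and -0.11 without both arrays labelled replicate 1. Col11a2, of cartilage fibrils, was just above the filter and differed by -0.09 ± 0.14 (SE).

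**Figure D2:**
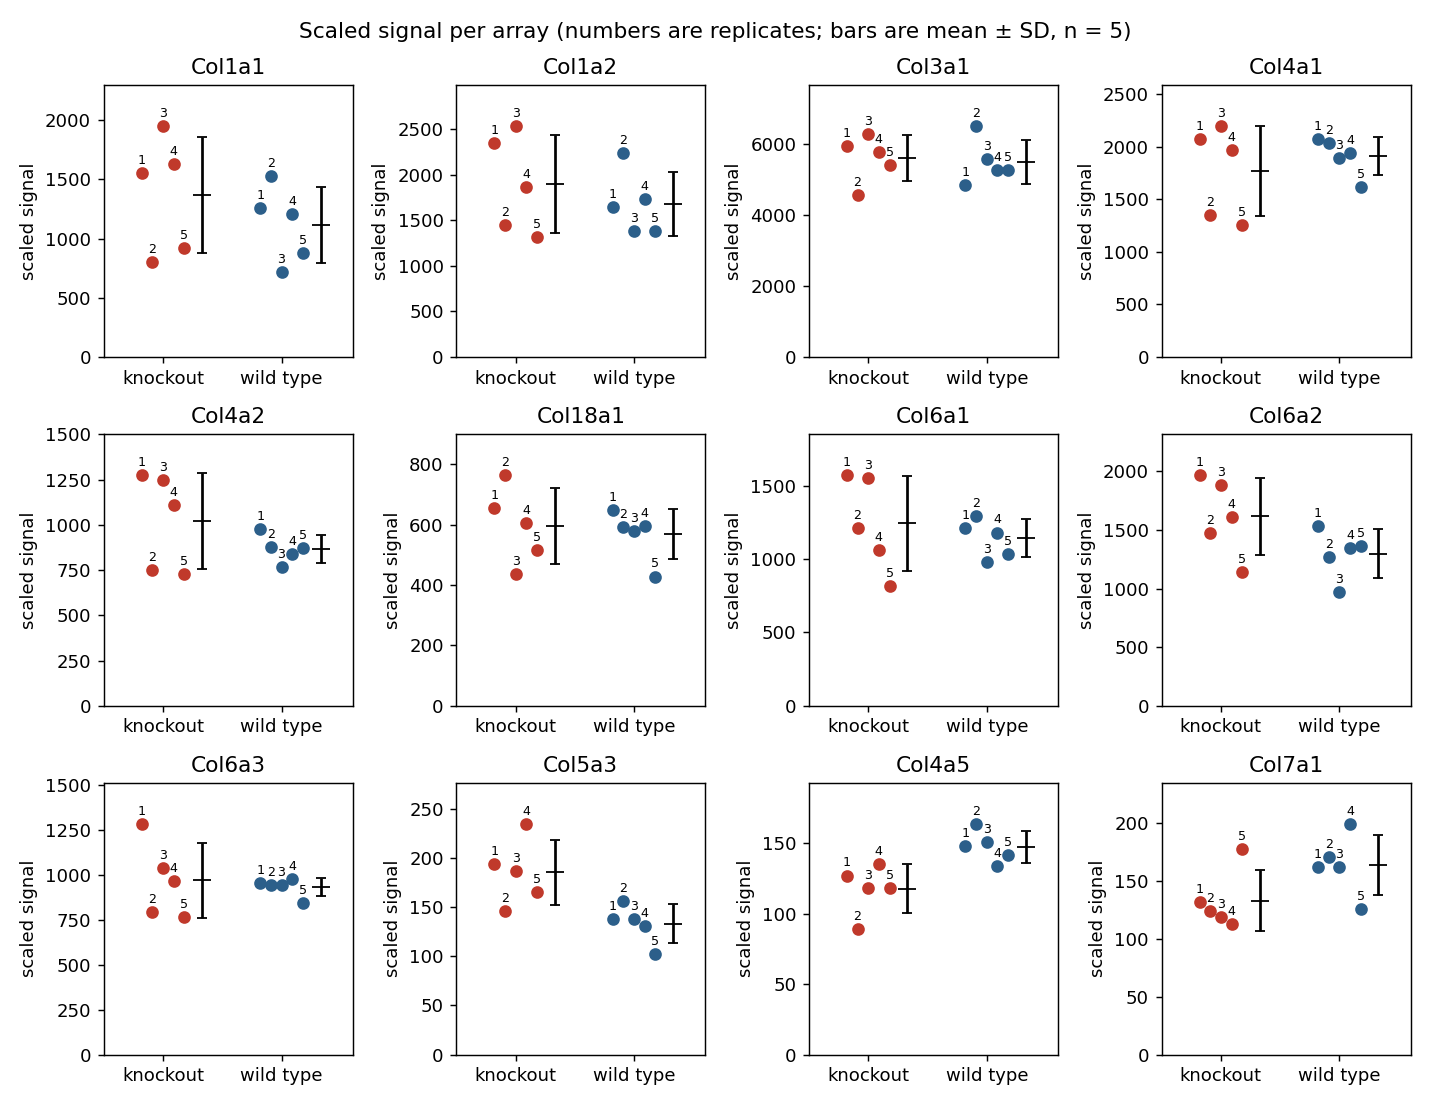
Scaled signal on each array for 12 collagen chain genes; numbers beside the points are replicates, and black bars are the mean ± SD of 5 arrays. For Col4a1, Col4a2 and Col6a3 the knockout arrays spread more widely than the wild type arrays, while Col5a3 and Col4a5 show the largest shifts relative to spread.

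The basement membrane chains had 6 of 9 genes past the filter, 3 higher and 3 lower, with a median log2 difference of -0.04. Without both arrays labelled replicate 1 it was -0.06, again with 3 higher and 3 lower. Col4a1 and Col4a2, whose products join in the common type IV trimer, had estimates of opposite sign, and neither passed. Col4a1 had signals of 2071, 1354, 2194, 1971 and 1256 on knockout replicates 1 to 5 and 2070, 2040, 1896, 1943 and 1619 on wild type replicates 1 to 5. Knockout replicates 2 and 5 were below all other arrays, and the log2 difference was -0.14 ± 0.15 (SE; adjusted p = 0.857). Col4a2 had 1274, 748, 1249, 1107 and 727 on knockout replicates 1 to 5 and 977, 878, 765, 838 and 871 on wild type replicates 1 to 5. Here knockout replicates 1, 3 and 4 were above every wild type array and replicates 2 and 5 below every one, with a difference of 0.19 ± 0.16 (SE; adjusted p = 0.797).

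Col4a5, a type IV chain whose loss causes hereditary nephritis, had signals of 127, 89.5, 119, 135 and 119 on knockout and 148, 164, 151, 134 and 141 on wild type replicates 1 to 5. Only knockout replicate 4 reached the wild type range, by a narrow margin above wild type replicate 4. The log2 difference was -0.24 ± 0.11 (SE; 95% interval -0.48 to 0.0041), with an adjusted p of 0.634 in limma and an exact permutation p of 0.0159. It was -0.39, -0.12 and -0.18 within wash runs 1, 2 and 3, and -0.26 ± 0.13 (SE) without both arrays labelled replicate 1. The dimmer Col4a5 probe set, under the filter, differed by -0.07 ± 0.12 (SE). Col7a1, of the anchoring fibrils that fasten epithelia to the matrix below, had signals of 131, 124, 119, 113 and 178 on knockout and 162, 170, 162, 199 and 125 on wild type replicates 1 to 5. The groups overlapped, with replicate 5 the highest of the knockout and the lowest of the wild type arrays. The log2 difference was -0.23 ± 0.13 (SE; adjusted p = 0.688), with 0.38 in wash run 3, which holds both replicates 5. Col18a1, the source of the fragment endostatin, differed by 0.05 ± 0.15 (SE) and its relative Col15a1 by 0.16 ± 0.13 (SE).

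Among the other types 7 of 18 genes passed the filter, 4 higher and 3 lower, with a median log2 difference of 0.03. Without both arrays labelled replicate 1 it was -0.00045, with 3 higher and 4 lower. Type VI collagen, built from Col6a1, Col6a2 and Col6a3 into beaded filaments around cells, was higher for all 3 chains, none of which passed. This shared direction did not hold in other settings. Without both arrays labelled replicate 1 the differences were 0.02, 0.28 and -0.06, in that order. With the fluidics module as a block they were -0.57, -0.19 and -0.31. Col6a2 had signals of 1966, 1471, 1884, 1612 and 1142 on knockout and 1537, 1269, 973, 1346 and 1367 on wild type replicates 1 to 5. Knockout replicates 1, 3 and 4 lay above all wild type arrays and replicate 5 below 4 of them, and the log2 difference was 0.29 ± 0.15 (SE; adjusted p = 0.669). A second Col6a2 probe set, which may also read related sequences, differed by 0.04 ± 0.13 (SE). Col6a1 had 1571, 1215, 1552, 1063 and 814 on knockout and 1213, 1295, 981, 1181 and 1035 on wild type replicates 1 to 5, a difference of 0.09 ± 0.16 (SE; adjusted p = 0.931). Col6a3 had 1280, 792, 1038, 962 and 763 on knockout and 954.7, 943, 942.6, 975.1 and 841 on wild type replicates 1 to 5. The wild type range of Col6a3 lay inside that of the knockout, and the difference was 0.03 ± 0.13 (SE; adjusted p = 0.976). Col9a1, a fibril-associated chain known from cartilage, differed by 0.24 ± 0.15 (SE), and by -0.07 ± 0.13 (SE) on a dimmer probe set under the filter. The difference was -0.22 ± 0.20 (SE) for Col25a1, a transmembrane collagen of neurons, with the highest Col25a1 signal, 439, on wild type replicate 3. The fibril-associated Col14a1 and Col16a1 differed by -0.02 ± 0.15 and -0.03 ± 0.14 (SE).

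The remaining 16 genes were under the filter, with mean signals between 3.78 and 110, and 10 of them were under 50. In the fit with no filter 9 of the 16 were higher and 7 lower, between -0.19 and 0.34. Col8a1, a short-chain collagen of vessel walls, was the only one of the 16 with an unadjusted p under 0.05 (log2 0.34 ± 0.15 SE; limma adjusted p = 0.694), where 7.18% of all probe sets were under it in that fit. Its signals were 100.7, 77.0, 143, 131 and 139 on knockout and 98.6, 58.1, 81.2, 105 and 70.7 on wild type replicates 1 to 5. Knockout replicates 3, 4 and 5 thus lay above every wild type array. The other, dimmer Col8a1 probe set differed by 0.04 ± 0.11 (SE). Col19a1, a minor collagen of basement membrane zones, differed by 0.19 ± 0.15 (SE) and by -0.16 ± 0.14 (SE) on its other probe set, with 61.0 on knockout replicate 1 and at most 33.3 elsewhere. Col10a1, of growth plate cartilage, differed by -0.19 ± 0.14 (SE), with 60.3 on wild type replicate 2 and at most 15.2 on the other 9 arrays. For both genes 1 array stood above all others.

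Collagen signals varied more among the knockout arrays than among the wild type arrays. The SD of the log2 values was larger on knockout than on wild type arrays for 17 of the 20 genes (85%), against 52.9% of all tested probe sets, with median SDs of 0.29 and 0.20 over the 20 genes and 0.20 and 0.20 over all probe sets. The 20 genes vary together, so that the 17 are not separate observations. These SDs include both arrays labelled replicate 1, and the spread without them is not given. Knockout replicate 1 was the highest of the 10 arrays for 8 of the 20 genes, and 14.01% of all probe sets were highest there. Knockout replicate 5 was the lowest for 7 of 20, against 10.8% of all probe sets, and knockout replicates 2 and 5 were among the lowest 3 arrays for 12 and 13 of 20, against 31.5% and 33.7%. Knockout replicates 1 and 3 were among the highest 3 for 14 and 13 of 20, against 32.9% and 35.9% of all probe sets. The mean log2 signal of the 7 fibrillar genes was 9.86, 9.24, 9.91, 9.73 and 9.40 on knockout replicates 1 to 5. On wild type replicates 1 to 5 it was 9.44, 9.77, 9.45, 9.58 and 9.34, inside the knockout range on each.

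**Figure D3:**
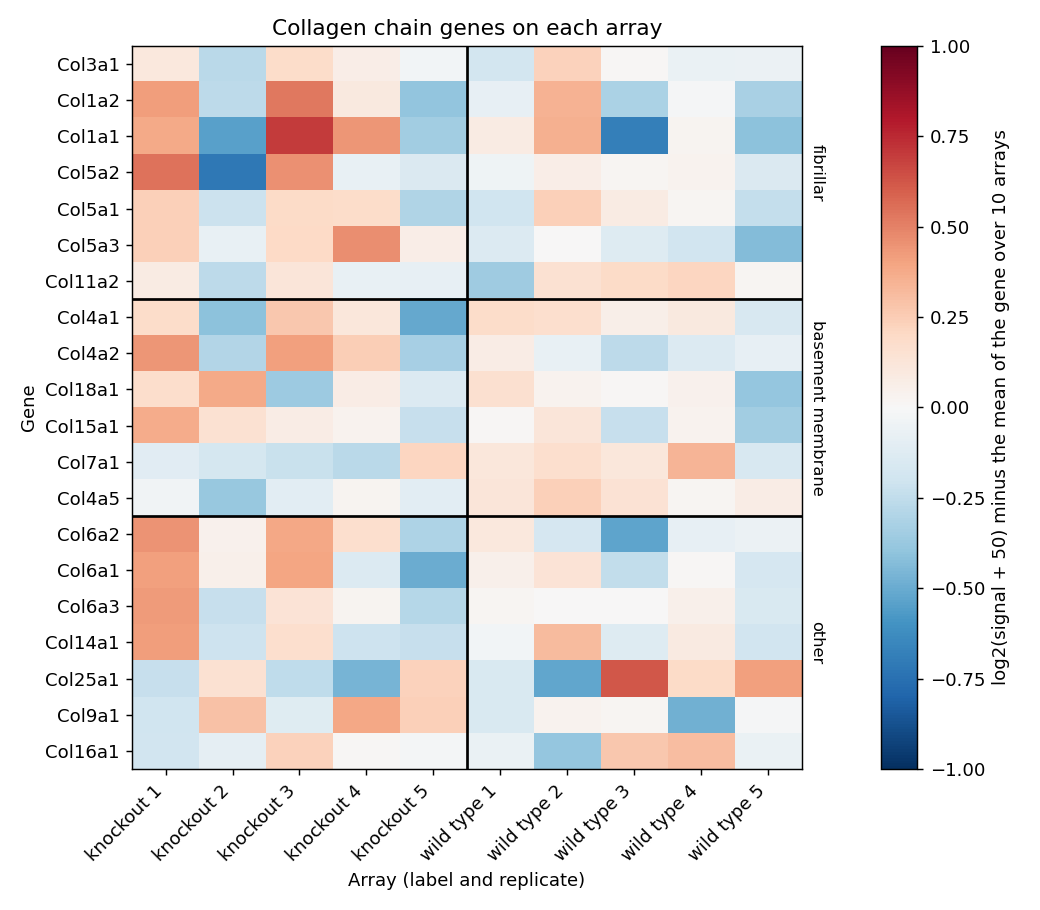
Log2(signal + 50) of the 20 collagen chain genes above the filter on each array, as the difference from the gene's mean over 10 arrays; genes are grouped by type and ordered by mean signal, red is above and blue below the gene's mean. Most fibrillar, type IV and type VI genes are red on knockout replicates 1 and 3 and blue on knockout replicates 2 and 5, while Col25a1 and Col9a1 run the other way on several arrays.

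The summed markers of smooth muscle and of fibroblasts were higher on knockout replicates 1, 3 and 4 than on replicates 2 and 5. In the sums of endothelial cells and pericytes the order differed, but not in the mean log2 signal of their markers past the filter. That mean was 8.13, 7.97, 8.03, 8.14 and 7.86 for endothelial cells on knockout replicates 1 to 5. For pericytes it was 8.78, 8.71, 8.76, 8.82 and 8.64. Sums of enteric glia and neurons were 1036, 1182 and 1146 on knockout replicates 1, 3 and 4. On replicates 2 and 5 they were lower, at 973 and 732. The summed signal of 11 smooth muscle markers was 44641, 39999 and 42426 on knockout replicates 1, 3 and 4, and 28265 and 31503 on replicates 2 and 5. On wild type arrays it ran from 20596 (replicate 1) to 35207 (replicate 4). The highest and the lowest sum thus lay on the arrays labelled replicate 1, on which Klf9 went against the label. Marker counts without both arrays are not given. All 10 smooth muscle markers past the filter were higher on knockout arrays (median log2 difference 0.38), with 4 of 10 at an unadjusted p under 0.05, against 7.89% of all probe sets. Within runs 1, 2 and 3 the smooth muscle median was 0.31, 0.31 and 0.42, and within module 4 it was -0.10. The 10 fibroblast markers summed to 5740, 6974 and 5711 on knockout replicates 1, 3 and 4, to 4032 and 5105 on replicates 2 and 5, and to between 4908 and 5597 on wild type arrays, with 3 of 8 higher and 5 lower (median -0.03). The 9 endothelial markers summed to 1789, 1516, 1507, 1655 and 1259 on knockout replicates 1 to 5 and to 1658 to 1940 on wild type arrays. Of these markers 1 of 6 was higher and 5 lower (median -0.23), with 2 of 6 at that p. The 5 pericyte markers summed to 3616, 4223, 4010, 4310 and 4271 on knockout replicates 1 to 5 and to 3503 to 5228 on wild type arrays. The 5 fat cell markers, all higher (median 0.62), with 3 of 5 at that p, summed to 2223 to 4611 and 849 to 4483. Markers of enteric glia and neurons summed to 732 to 1182 and 765 to 1263, of mesothelium to 225 to 401 and 148 to 393, and of exocrine pancreas to 894 to 1295 and 949 to 1372. No marker on the array was at 0, and their part in the collagen values was not tested. Wash runs, told apart by gaps between hybridization times, held knockout replicates 1 and 2, then 3 and 4, then 5, each with the wild type arrays of the same numbers. Within runs 1, 2 and 3 the median difference was -0.06, 0.17 and 0.0025 for the fibrillar, -0.10, -0.0035 and -0.03 for the basement membrane and 0.11, 0.06 and -0.13 for the other genes. Within fluidics module 4, which held knockout replicate 5 and wild type replicates 2 and 4, these medians were -0.27, -0.23 and -0.19. Modules 1 and 2 held knockout arrays only and module 3 wild type arrays only. Label and module can therefore hardly be told apart in any difference between the labels.

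Chains of one molecule, fibril or locus were correlated over the 10 arrays pooled, for 7 of the 8 pairs below at an adjusted p under 0.05. Of 10 such pairs 8 had both genes past the filter, and Pearson's r was positive for all 8, from 0.61 to 0.92. For Col1a1 and Col1a2, r was 0.92 (permutation p = 0.00043, adjusted over the 8 pairs 0.00344) and Spearman's rho 0.84 (permutation p = 0.00386). Without wild type replicate 3 and knockout replicate 3, the arrays farthest from the median of Col1a1, r was 0.89, and with group and wash run means removed it was 0.91. For Col4a1 and Col4a2, r was 0.72 (permutation p = 0.0189, adjusted 0.0252) and rho 0.92 (permutation p = 0.00061). That r was 0.58 without knockout replicates 2 and 5 and 0.97 with group and wash run means removed. For Col6a1 and Col6a2, r was 0.79 (permutation p = 0.00802, adjusted 0.0239), and 0.67 without knockout replicates 1 and 5. For Col6a1 and Col6a3, r was 0.76 (permutation p = 0.012, adjusted 0.0239) and 0.40 without knockout replicates 1 and 5, so that it rests on these arrays. The neighbours Col3a1 and Col5a2, with no protein-coding gene between them, had r = 0.74 (permutation p = 0.0128, adjusted 0.0239). Col6a2 and Col6a3 had the lowest r, 0.61 (permutation p = 0.0569), and did not pass. Correlation was not confined to these pairs. Col4a1 had a higher r with Col6a3 (0.81), Col5a1 (0.78), Col1a2 (0.75) and Col5a2 (0.73) than with Col4a2 (0.72). Its r with the other members was lower. Set among 8270 genes outside the collagens, Col4a2 took rank 108 by r with Col4a1. By r with Col3a1, Col5a2 and Col1a1 took ranks 64 and 184. No label or wash run holds as many as 6 arrays, so r within one is not given. The order of the wild type arrays alone did not follow the pairs throughout: replicate 5 was lowest for Col4a1 but above replicates 3 and 4 for Col4a2. It was also lowest for Col6a3 but the second highest for Col6a2.

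The gap between Col4a2 and Col4a1 on the same array separated the labels. The pair was singled out after its values were seen. The log2 signal of Col4a2 minus that of Col4a1 was -0.68, -0.81, -0.79, -0.80 and -0.75 on knockout replicates 1 to 5 and -1.05, -1.17, -1.26, -1.17 and -0.86 on wild type replicates 1 to 5. Every knockout array lay above every wild type array, including both arrays labelled replicate 1, on which Klf9 went against the label. The size of the gap depends on the probes, and only its change between arrays is read here. The mean was -0.77 ± 0.05 on knockout and -1.10 ± 0.15 on wild type arrays (SD, n = 5), and they differed by 0.33 (exact permutation p = 0.00794, the smallest possible). Over the 8 pairs compared in this way the adjusted p was 0.0635, which does not pass. With 5 against 5 arrays, 1 pair alone could not pass after this adjustment even at the smallest p, so it decides nothing. The difference was 0.36, 0.41 and 0.11 within wash runs 1, 2 and 3 and 0.42 within module 4, the only module with arrays of both labels. Without both arrays labelled replicate 1 it was 0.32 (exact permutation p = 0.0286, the smallest that 4 against 4 allow). With the other Col4a1 probe set it was 0.28 (exact permutation p = 0.0397) and the labels overlapped. Of the other 7 pairs, Col6a2 and Col6a3 came next, with a difference of -0.26 (exact permutation p = 0.0635).

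**Figure D4:**
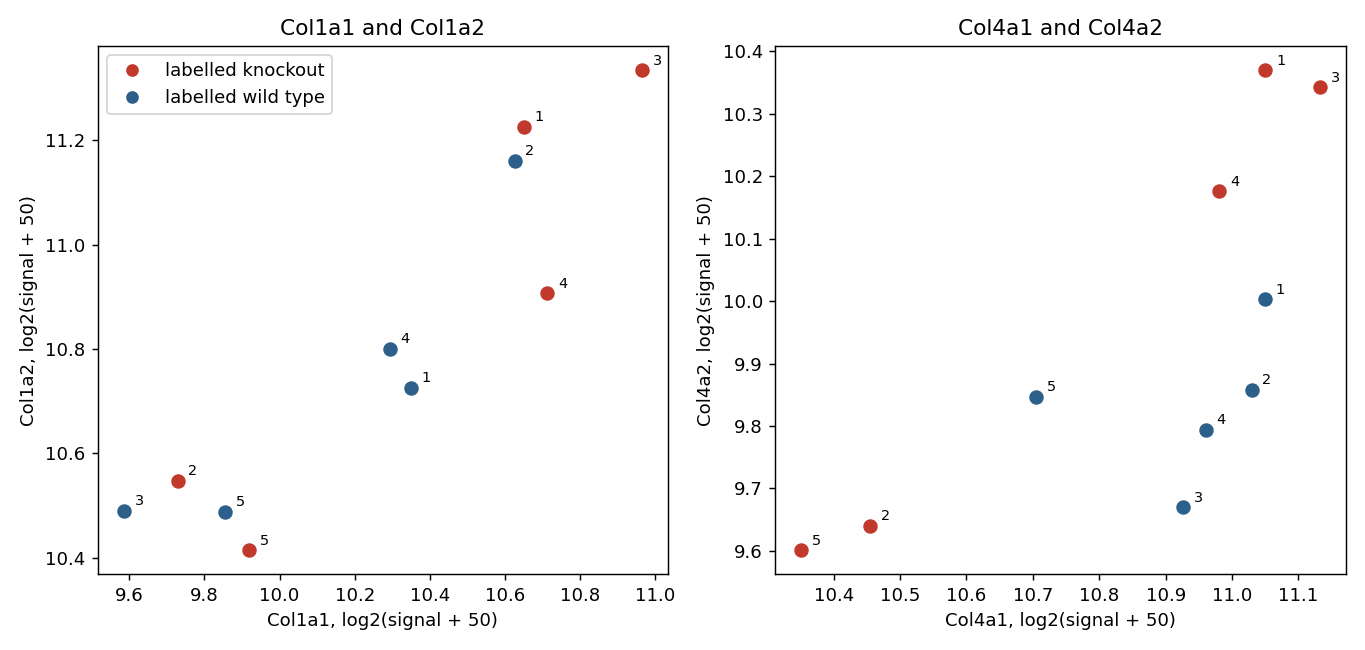
Log2(signal + 50) of Col1a2 against Col1a1 (left) and of Col4a2 against Col4a1 (right) on the 10 arrays, coloured by label, with replicate numbers. The type I chains of both labels overlap, while for the type IV chains the knockout arrays have a higher Col4a2 at a given Col4a1, with mean differences between the chains of -0.77 on knockout and -1.10 on wild type arrays.

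The genes whose signal was most like that of 2 collagen genes were looked up among 8270 other genes, by Pearson's r over the 10 arrays. With so many genes and so few arrays high values of r arise by the choice alone. For Col3a1 the 8 highest, with r from 0.84 to 0.91, were Oxa1l, Mpg, Ski, Tmem106b, Apbb2, Tecr, Dcn and Def8, of which Dcn encodes decorin, a proteoglycan on the surface of collagen fibrils. For Col4a1 they were Rnf4, Tnfrsf11a, Pecam1, Zfr, Mtmr1, Ptprg, Gpat4 and Cdc42bpa, with r from 0.88 to 0.96, of which Pecam1 is an adhesion molecule of endothelial cells. Against Col3a1, the member of highest r was Col5a1 (0.80) and that of lowest r Col25a1 (-0.51). Against Col4a1 they were Col6a3 (0.81) and Col9a1 (-0.53).

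Genes that modify and fold collagen chains in the endoplasmic reticulum were mixed, and none had an adjusted p under 0.05. Of 21 listed genes 16 were on the array and 11 past the filter, 7 higher and 4 lower (median log2 difference 0.10), with 2 of 11 at an unadjusted p under 0.05, against the 7.89% of all probe sets given above. Colgalt1, which adds galactose to hydroxylysine of collagen, had signals of 744, 691, 770, 734 and 693 on knockout and 549, 492, 499, 582 and 366 on wild type replicates 1 to 5. The groups did not overlap, as for 1.55% of all probe sets tested, and the log2 difference was 0.52 ± 0.12 (SE; limma adjusted p = 0.441). Serpinh1, the collagen chaperone Hsp47, had 733, 634, 669, 822 and 612 on knockout and 491, 701, 590, 582 and 405 on wild type replicates 1 to 5. Only wild type replicate 2 reached into the knockout range, and the difference was 0.31 ± 0.14 (SE; adjusted p = 0.614). Of the listed genes under the filter, P3h1 differed by -0.37 ± 0.14 and P3h4 by 0.27 ± 0.13 (SE) in the fit with no filter.

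Of 13 genes for trimming and crosslinking 6 passed the filter, 4 higher and 2 lower (median 0.21). At an unadjusted p under 0.05 there was 1 of 6, against 7.89% of all probe sets tested. Pcolce, an enhancer of procollagen C-proteinase, had 298, 358, 322, 309 and 320 on knockout and 260, 287, 259, 284 and 235 on wild type replicates 1 to 5. Its groups did not overlap either, as for 1.55% of all probe sets tested, with a difference of 0.24 ± 0.10 (SE; adjusted p = 0.571). Bmp1, that proteinase itself, differed by 0.60 ± 0.33 (SE), with 51.7 and 58.5 on wild type replicates 1 and 3 and at least 123 elsewhere. Of 17 fibril partners 12 passed the filter, 6 higher and 6 lower (median 0.01). Among them the tenascin Tnxb differed by 0.25 ± 0.11 and the proteoglycan Lum (lumican) by -0.28 ± 0.19 (SE). Of 11 basement membrane partners 6 passed the filter, 4 higher and 2 lower (median 0.07), with the linker Nid1 (nidogen) at -0.26 ± 0.13 and the calcium-binding Smoc2 at 0.11 ± 0.11 (SE). Of 10 collagen receptors 4 passed the filter, 2 higher and 2 lower (median -0.06). The discoidin domain receptors Ddr1 and Ddr2, tyrosine kinases activated by collagen, differed by -0.20 ± 0.23 and -0.19 ± 0.13 (SE). Of 18 genes of matrix degradation 8 passed the filter, 3 higher and 5 lower (median -0.03), with the collagenase Mmp13 at -0.43 ± 0.18 and the inhibitor Timp2 at 0.33 ± 0.15 (SE). At that p, with its 7.89% of all probe sets, there were 1 of 12 fibril partners and 0 of 6 basement membrane partners. There were also 0 of 4 receptors and 2 of 8 degradation genes. In no list did a gene have an adjusted p under 0.05. Probe sets used for Ddr1 and Timp2 may also read related sequences.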

How the data were processed

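Jejunal RNA of mice was measured on 10 arrays, 5 labelled knockout and 5 wild type, all from postnatal day 30. The authors deposited 1 linear intensity (signal) for each probe set, quantified with MAS 5.0 per the series' design text, whose 2% trimmed means are about 500 on every array. Other settings deposited with each array (unit: other) were used only for the fluidics module and hybridization time, giving 4 modules and 3 wash runs at gaps of over 30 minutes. The background correction was not changed, since scanner images were not used here. Detection calls were not used.

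Signals were rescaled per array to a 2% trimmed mean of 500, and log2(signal + 50) was taken, so that fold changes of dim genes are understated. Control probe sets (64 of 22690) were left out. Probe sets above the 40th percentile of mean signal, and all Klf9 probe sets, were kept (13579). Groups were compared with limma 3.58.1 in R 4.3.3 (lmFit, eBayes with trend, two-sided, Benjamini-Hochberg over all tested probe sets, threshold 0.05). The step was tested on simulated data. Single values were tested by exact permutation of the 252 splits and correlations by 100000 permutations (Python 3.11.15). SE is limma's moderated error, and SD is over the 5 arrays of a label. The number of arrays limits the precision.

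Members, lists and tests were chosen with earlier results of these data known. The rule named the 3 genes of highest mean signal in each type and the 5 members of lowest p in each direction (fit with no filter). It also named the 2 genes of lowest p among those past the filter in each pathway list, and the 8 genes most like Col3a1 and Col4a1. Any other member or list gene was named with its values already known. Current RefSeq symbols (GRCm38.p6), found through gene IDs for 20351 of the 20380 probe sets with a single symbol, served for the lists. Alternatives changed the offset (1, 16 or 100), the filter (none or the 60th percentile), the normalization (quantile, cyclic loess or none beyond the deposit), the variance model (no trend, robust, array weights), blocks (replicate number, wash run, module), the arrays (each left out, or both labelled replicate 1) and the probe sets (averaged per gene).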

Additional observations from a re-analysis of the deposited data

Results flagged for a closer look

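Of 72 groups of 5 arrays checked for an array far from the others, 3 were marked by a gap of more than 0.71 of the group's range, where chance marks about 1 in 20. Col18a1 had a scaled signal of 429 on wild type replicate 5 and 579 to 648 on the other wild type arrays. Col6a3 had 841 on wild type replicate 5 and 942.6 to 975.1 on the other wild type arrays. Nid1 had 865 on knockout replicate 3 and 582 to 612 on the other knockout arrays.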

How the results depend on the processing

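The count of collagen chain genes past the threshold was 0 under each of the 26 alternatives run. The count over all probe sets was 3 with array weights, 9 without both arrays labelled replicate 1, 0 to 5 with 1 array left out (5 without knockout replicate 1, 3 without knockout replicate 5 and 1 without wild type replicate 1) and 0 otherwise. With the replicate number as a block (replicate block) the medians of the fibrillar, basement membrane and other genes stayed at 0.04, -0.04 and 0.03, with 0 calls. Same-numbered arrays did not all deviate together (r from -0.12 to 0.28; 3 of 5 correlated best with their own number), so the numbers were not taken as pairs. The medians ran from -0.0071 to 0.21, from -0.12 to 0.03 and from -0.0046 to 0.10 with 1 array left out, and a block for the module, in which 1 knockout array informs a value, gave -0.27, -0.23 and -0.19. That block turned 13 of the 20 members, and 4 list genes: Col15a1 (-0.31), Col16a1 (0.017), Col5a1 (-0.43), Col5a2 (-0.19), Col18a1 (-0.18), Col1a1 (-0.54), Col1a2 (-0.57), Col25a1 (0.40), Col3a1 (-0.11), Col4a2 (-0.23), Col6a1 (-0.57), Col6a2 (-0.19), Col6a3 (-0.31), Serpinh1 (-0.058), Timp2 (-0.35), Bmp1 (-0.67) and Smoc2 (-0.0024). Col3a1 and Col6a3 turned to -0.017 and -0.034 with array weights. Without both arrays labelled replicate 1 the members that turned were Col3a1 (-0.040), Col6a3 (-0.064), Col5a1 (-0.064) and Col5a2 (-0.11). There Klf9 passed (-1.26, limma adjusted p = 0.0147). Both arrays were left out for their Klf9 signal, so that this is no separate test of Klf9. With 1 array left out Col18a1 ran from -0.037 to 0.15, Col3a1 from -0.018 to 0.10, Col6a1 from -0.0046 to 0.22 and Col6a3 from -0.073 to 0.10. Among named genes that kept their sign, Col1a1 ran from 0.11 to 0.42, Col1a2 from 0.041 to 0.27, Col4a1 from -0.22 to -0.029, Col4a2 from 0.11 to 0.30, Col25a1 from -0.38 to -0.10 and Lum from -0.40 to -0.11. The r of Col4a1 and Col4a2 was 0.97 with group and wash run means removed, and that of Col6a1 and Col6a3 was 0.40 without the 2 arrays farthest from the median. The Col4a2 minus Col4a1 difference ran from 0.29 to 0.39 with 1 array left out and was 0.33 with replicate pairs as a block, where its exact permutation p of 0.0625 is the smallest that 5 pairs allow. The causes were not tested. Col8a1, Col10a1, Col19a1, P3h1 and P3h4 lay under the filter and were not tested with arrays left out.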
